A study of Mus musculus with 6 samples.

Results

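The transcripts of normal mouse quadriceps, the large extensor muscle of the thigh, were read from the 3 wild-type control libraries out of the 6 libraries of the series. These libraries were taken by their labels as the control columns of the count table, without use of any measured value. The control mice were male C57BL/6 animals 20 weeks old and wild type. The other 3 libraries came from male C57BL/6 mice of the same age with a muscle-specific knockout of the estrogen receptor ERα (MERKO), and the labels used here give no Cre driver or promoter for that knockout. RNA was extracted with Trizol and made into libraries with the Illumina TruSeq RNA kit. The labels do not say whether the 3 libraries came from separate animals.

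Skeletal muscle fibres are filled with sarcomeres, in which myosin thick filaments pull on actin thin filaments when calcium leaves the sarcoplasmic reticulum. Fast glycolytic fibres use the myosin heavy chain gene Myh4 and regenerate ATP from phosphocreatine and glycogen, whereas slow fibres use Myh7 and depend on mitochondria and on oxygen bound to myoglobin. The mouse quadriceps is known as a mainly fast muscle with a smaller and deeper oxidative portion.

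Levels are given on a pair of scales. CPM is the count of a gene scaled to a library total of 1000000 counts, with the ribosomal RNA gene model CT010467.1 left out, and it compares a gene between libraries. TPM is the count per base of the union of annotated exons, scaled to a sum of 1000000 per library, and it is used to compare genes with each other. The union can be longer than the transcript in use, so TPM ranks and shares depend on the annotation. Without CT010467.1 the libraries held 19390393, 10802792 and 44263280 counts in control 1, 2 and 3, so 1 count was worth 0.0516, 0.0926 and 0.0226 CPM. CT010467.1 took 11.1%, 27.7% and 0.0433% of all counts, with the lowest share in the deepest library. Whether RNA was selected or depleted alike in the 3 libraries is not known here, and the part of this share in differences between them was not tested. The labels mention no molecular identifiers, so counts may not be independent molecules, and the limits given below cover counting error alone.

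The 4 muscle marker genes used to check the label stood among the most abundant genes. Myh4, the fast type IIb myosin heavy chain (chromosome 11, 67238029 to 67260446, plus strand, GRCm38), was at 68311 CPM in control 1, 90465 in control 2 and 77921 in control 3. Acta1, the actin of skeletal thin filaments (chromosome 8, 123891769 to 123894751, minus strand), was at 26922 CPM in control 1, 24848 in control 2 and 30421 in control 3. Ckm, the cytosolic muscle creatine kinase (chromosome 7, 19404776 to 19422841, plus strand), was at 24401 CPM in control 1, 23723 in control 2 and 28992 in control 3. In each of these genes the highest library was at most 1.32 times the lowest, and the library that was highest differed between Myh4 and the other genes. Pvalb, a calcium buffer of fast fibres (chromosome 15, 78191114 to 78206400, minus strand), was at 6992 CPM in control 1, 7692 in control 2 and 10377 in control 3, a ratio of 1.48 between the highest and the lowest library. By mean CPM the 4 genes held ranks 2, 4, 5 and 14 of the 48794 genes in the table.

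The sequences upstream of these genes are shown because these genes gave some of the most abundant transcripts of the muscle. They are the 250 bases before the RefSeq start on GRCm38.p6, in the direction of transcription, for Myh4 at chr11:67237562-67237811 (plus strand), Acta1 at chr8:123894776-123895025 (minus strand) and Ckm at chr7:19410844-19411093 (plus strand). Capitals mark matches, on either strand, to the TATA box TATAAA, the E-box CANNTG bound by myogenic factors, the M-CAT site CATTCC bound by TEAD factors, and the CArG box bound by serum response factor.
Myh4: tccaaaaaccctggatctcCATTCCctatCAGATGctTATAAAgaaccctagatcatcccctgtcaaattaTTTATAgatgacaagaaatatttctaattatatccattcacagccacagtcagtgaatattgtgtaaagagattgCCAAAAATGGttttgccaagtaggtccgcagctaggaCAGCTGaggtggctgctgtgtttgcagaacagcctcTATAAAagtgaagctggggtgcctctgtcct
Acta1: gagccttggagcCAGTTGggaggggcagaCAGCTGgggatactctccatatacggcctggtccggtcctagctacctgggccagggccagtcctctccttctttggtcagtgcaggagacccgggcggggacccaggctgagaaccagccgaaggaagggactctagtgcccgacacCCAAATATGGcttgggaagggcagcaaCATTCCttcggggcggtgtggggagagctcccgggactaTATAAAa
Ckm: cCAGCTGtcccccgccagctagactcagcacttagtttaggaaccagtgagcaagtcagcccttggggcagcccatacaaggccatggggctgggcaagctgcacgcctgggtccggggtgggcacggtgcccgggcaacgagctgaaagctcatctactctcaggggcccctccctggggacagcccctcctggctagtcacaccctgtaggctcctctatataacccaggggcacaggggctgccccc
A CArG box lay 104 bases before the start of Myh4 and 73 bases before that of Acta1. Acta1 also held an M-CAT site 46 bases before its start, and Ckm held 1 E-box 249 bases before its start. Pvalb has 2 promoters in the RefSeq table, and the 1 searched held none of these 4 motifs. Among 32851 promoters in the RefSeq table, a CArG box occurred in 1.63% and an M-CAT site in 14.7% within the same 300-base window, which runs 50 bases past the start. Of the 50 most abundant protein-coding genes outside mitochondrial DNA, 37 had an entry, with 48 promoters. Of these promoters, 8.33% (4) held a CArG box, 22.9% (11) an M-CAT site and 14.6% (7) a TATA box. A MEF2-type site in a strict form that begins with CTA and ends with TAG was held by 6.25% (3). An E-box was held by 79.2% (38). In all promoters of the table this strict MEF2-type site occurred in 0.557%, the TATA box in 13.6% and the E-box in 72.3%. These matches describe letters in a window, and binding was not measured.

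A small number of genes took most of the counts. The most abundant gene held 8.51% ± 3.00 of counts (SD, n = 3), the first 10 held 37.3% ± 2.41 (here and below, ± is the SD over the 3 control libraries), the first 50 held 53.8% ± 1.86 and the first 1000 held 78.2% ± 0.684. When genes were ranked within each library, 39, 24 and 33 genes made up 50% of the counts of control 1, 2 and 3, and 3100, 2962 and 3090 genes made up 90%. The membership was largely shared, with 44 of the 50 genes in the first 50 of every control library and 47 of them in the first 50 of the MERKO libraries ranked by their mean. At a level of 1 CPM or more in every control library there were 11677 genes. They included 11060 of the 21772 protein-coding genes, the share against which counts of list members below can be read. The number over all genes fell to 6536 at 10 CPM, 901 at 100 CPM, 64 at 1000 CPM and 11 at 10000 CPM. No count was found in any control library for 25482 of the 48794 genes, 5815 of them protein coding, and 0 counts allow a level of up to 0.0678 CPM in the deepest library and 0.278 CPM in the shallowest.

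**Figure D1:**
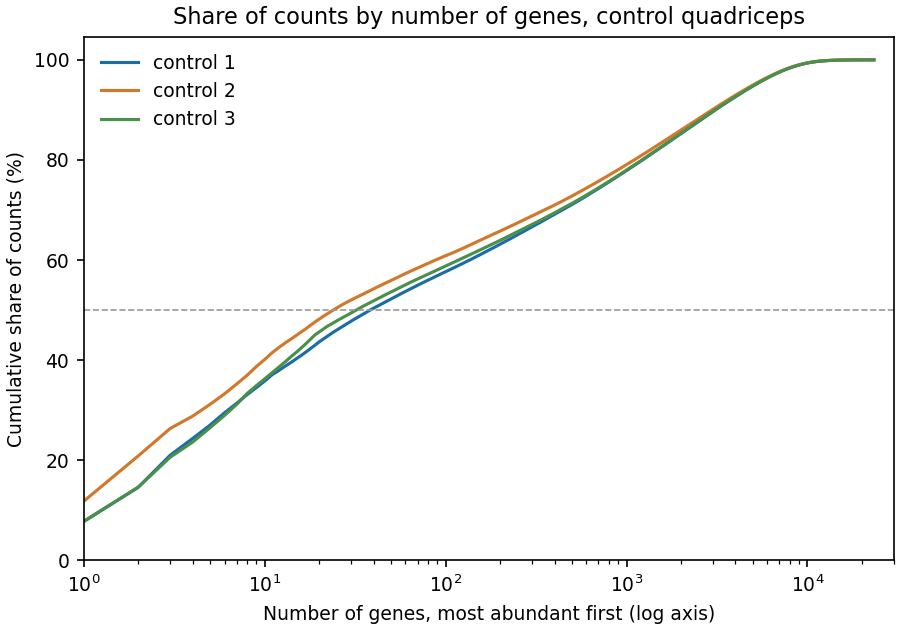
Cumulative share of counts (vertical axis, percent) against the number of genes taken from the most abundant downwards (horizontal log axis), 1 line per control library, with a dashed line at 50%. The lines cross 50% at 39, 24 and 33 genes in control 1, 2 and 3, and control 2 lies highest over the first genes.

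Titin headed the list by CPM but not per length. Ttn, which encodes the elastic filament from the Z disc to the middle of the sarcomere and has an exon length of 116825 bases, was at 77566 CPM in control 1, 118165 in control 2 and 59549.9 in control 3. It held rank 1 in control 1 and control 2 and rank 3 in control 3, where Myh4 held rank 1. On the TPM scale Ttn held rank 33 with 2277 ± 965 TPM (SD, n = 3), against 40554 ± 8249.5 TPM for Myh4 and 54644 ± 2716 TPM for Acta1. Neb, the giant ruler protein of the thin filament, stood at 13920 ± 3214 CPM but only 1628 ± 493 TPM.

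On the TPM scale the order of the abundant genes changed. The mitochondrial large ribosomal RNA mt-Rnr2 stood first at 120709 ± 5751 TPM, followed by Acta1 and the cytochrome oxidase subunit mt-Co1 at 50496 ± 12949.9 TPM. Myh4 came next, then the troponin T gene Tnnt3 at 36569.6 ± 3659.5 TPM. Neighbours in this order from Acta1 to Tnnt3 differed by less than the larger of their SDs. Small calcium-handling and contractile proteins moved up, with the troponin C gene Tnnc2 at 28780.1 ± 3545 TPM, Pvalb at 24566 ± 4449.6 TPM and the regulatory light chain Mylpf at 20492 ± 3079 TPM. Of the 50 genes with the highest mean CPM, 40 were also among the 50 with the highest mean TPM.

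**Figure D2:**
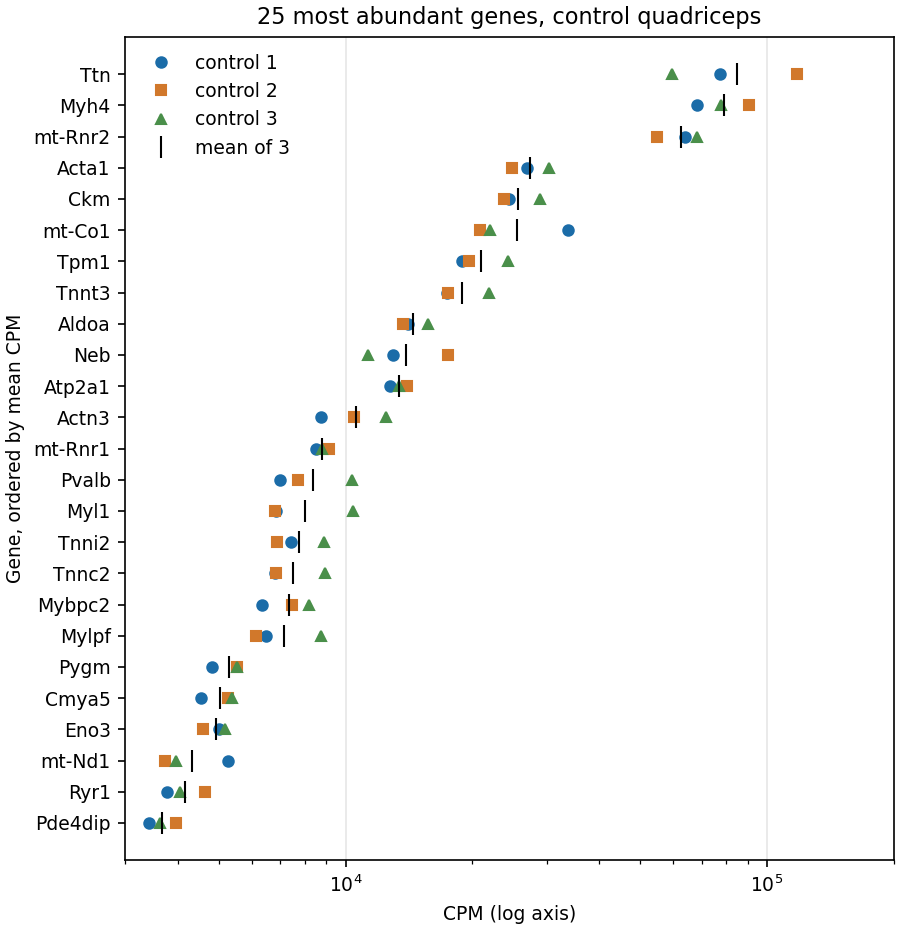
CPM (horizontal log axis) of the 25 genes with the highest mean CPM in control quadriceps, 1 symbol per library and a bar at the mean of 3. Myh4 lies between 68311 and 90465 CPM, while Ttn spreads from 59550 to 118165 CPM and mt-Co1 from 20792 to 33646 CPM.

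The sarcomere was the largest class, with 33.3% ± 3.12 of counts over 73 genes (SD, n = 3) and 31.1%, 36.8% and 31.8% in control 1, 2 and 3. Genes of mitochondrial DNA followed with 10.5% ± 1.22, and phosphagen, glycolysis and glycogen genes with 8.53% ± 0.480. Calcium handling and excitation held 3.95% ± 0.271, and nuclear genes of fatty acid use, the citric acid cycle and the respiratory chain held 3.23% ± 0.881. Ribosome and translation genes held 1.87% ± 0.183, degradation and chaperones 1.24% ± 0.0662, and markers of other cell types with collagens 0.869% ± 0.0731. The other 47856 genes of the table held 35.8% ± 0.997. Per exon length, the sarcomere held 26.9% ± 1.78 and genes of mitochondrial DNA 22.4% ± 1.62 of TPM.

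**Figure D3:**
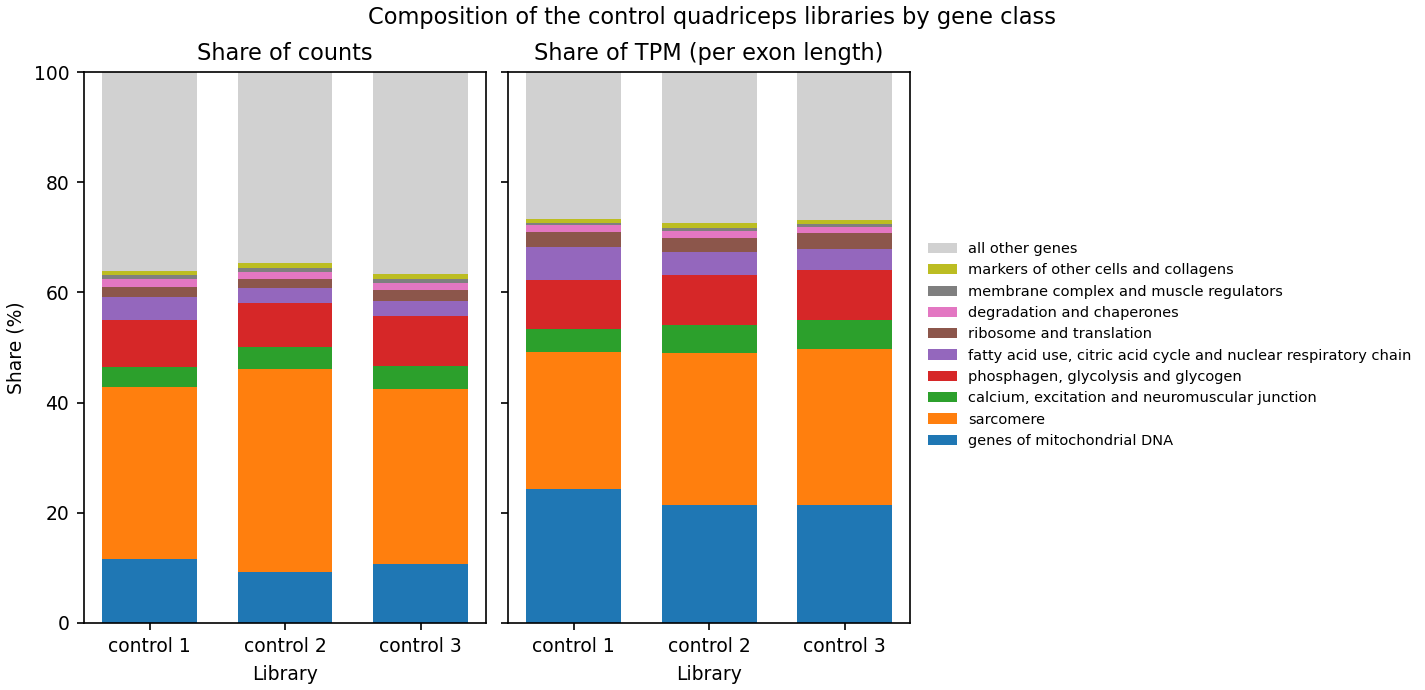
Share of counts (left) and share of TPM (right) in percent for 10 gene classes without overlap, stacked to 100%, 1 bar per control library. The sarcomere and genes of mitochondrial DNA form the lower blocks, and the block of nuclear oxidative genes is tallest in control 1, at 4.25% of counts against 2.76% and 2.69%.

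In the thick filament, Myh4 was accompanied by the essential light chain Myl1 at 8022 ± 2090.3 CPM, the fast myosin-binding protein Mybpc2 at 7331 ± 928 CPM and Mylpf at 7123 ± 1419.8 CPM. Of the TPM of the 4 adult skeletal heavy chains, Myh4 made up 88.6%, 97.5% and 98.9% in control 1, 2 and 3. Myh1, the IIx chain, made up 9.17%, 2.42% and 1.04%, and Myh2, the IIa chain, 2.03%, 0.0604% and 0.0504%. Control 1 was thus the library with the smallest Myh4 share and the largest Myh1 and Myh2 shares. These genes are near-identical neighbours on chromosome 11, and how multiply placed reads were counted is not given in the sources used here, so the split between them is uncertain.

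In the thin filament, the tropomyosin gene Tpm1 stood at 20938 ± 2925 CPM and Tnnt3 at 18893 ± 2566 CPM. The inhibitory troponin Tnni2 was at 7742 ± 1049 CPM and Tnnc2 at 7519.9 ± 1217 CPM. The fast member took 99.9% ± 0.109 of the Tnnt1 and Tnnt3 TPM, 99.95% ± 0.0703 of that of Tnni1 and Tnni2, and 99.9% ± 0.196 of that of Tnnc1 and Tnnc2. Acta1 made up 99.5% ± 0.0889 of the TPM of the sarcomeric actins Acta1 and Actc1. Tropomyosin was less uniform, since Tpm1 held 70.02%, 80.5% and 80.1% and Tpm2 29.7%, 19.5% and 19.9% of the tropomyosin TPM in control 1, 2 and 3.

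At the Z disc, Actn3, the fast-fibre actinin, stood at 8725, 10462 and 12502 CPM in control 1, 2 and 3 and made up 98.5% ± 1.57 of the TPM of Actn2 and Actn3. The costamere protein gene Cmya5 was at 5046 ± 451 CPM, the actin-binding Xirp2 at 2895 ± 222 CPM and the intermediate filament gene Des at 2701 ± 158 CPM. Among genes of calcium release and uptake, Atp2a1, the fast calcium pump of the sarcoplasmic reticulum, was at 13383 ± 622 CPM and made up 99.7% ± 0.257 of the TPM of Atp2a1 and Atp2a2. The release channel Ryr1 was at 4156 ± 439 CPM, the calcium store protein Casq1 at 1978 ± 280.5 CPM and the sarcoplasmic glycoprotein Srl at 1741 ± 86.4 CPM. Of the 34 genes listed for calcium and excitation, 33 reached 1 CPM in every control library, against 11060 of 21772 protein-coding genes in the table.

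Phosphagen and glycolytic enzymes regenerate ATP in fast fibres. Ckm made up 94.5% ± 3.57 of the creatine kinase TPM, with the mitochondrial Ckmt2 at 9.52%, 4.07% and 2.80% in control 1, 2 and 3. The ADP/ATP carrier Slc25a4 was at 3993, 2741 and 2931 CPM in control 1, 2 and 3. Aldoa, the glycolytic aldolase, was at 14459.6 ± 1074 CPM, the glycogen phosphorylase Pygm at 5288 ± 415 CPM, the muscle enolase Eno3 at 4931 ± 302 CPM, the pyruvate kinase Pkm at 3467 ± 55.98 CPM and the phosphofructokinase Pfkm at 3070.4 ± 171 CPM. All 34 genes listed for glycolysis and glycogen reached 1 CPM in every library, and the median CV of the 30 with a mean of at least 10 CPM was 7.06%, against 9.06% over 6973 genes at that level. Ldha made up 96.1% ± 4.97 of the lactate dehydrogenase TPM, although its partner Ldhb reached 9.59% in control 1 against 1.24% and 0.730% in the other two.

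Protein-coding genes of mitochondrial DNA made up 3.39% ± 0.874 of counts. The cytochrome oxidase gene mt-Co1 was at 33646 CPM in control 1, 20792 in control 2 and 22020.3 in control 3, the complex I gene mt-Nd1 at 4316 ± 817 CPM and the cytochrome b gene mt-Cytb at 2417 ± 429 CPM. Other oxidase and ATP synthase subunits of the same genome were listed with mt-Co3 at 9.39, 6.02 and 8.13 CPM, mt-Co2 at 5.26, 3.15 and 3.75 CPM and mt-Atp6 at 2.01, 1.39 and 1.17 CPM in control 1, 2 and 3. How multiply placed reads and reads of either strand were counted is unknown for these genes. Their values and their share of counts are therefore uncertain, and levels are not compared between the subunits.

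The control libraries differed widely in slow-fibre and oxidative genes, which were high in control 1. Myh7, the slow myosin heavy chain, was at 227 CPM in control 1, 7.04 in control 2 and 9.92 in control 3. Myh2 was at 1858 CPM in control 1, 66.5 in control 2 and 47.1 in control 3, and Mb, which encodes myoglobin, at 1990.4 CPM in control 1, 470.0 in control 2 and 260.4 in control 3. Control 1 stood above the others in each of these genes, and control 2 and control 3 lay within a factor of 2 of each other. Without control 1 the mean fell from 81.3 to 8.48 CPM for Myh7, from 657 to 56.8 CPM for Myh2 and from 907 to 365 CPM for Mb. The 15 slow-fibre genes summed to 958, 94.5 and 105 CPM in control 1, 2 and 3, and control 1 had the highest CPM in each of the 15. Myl3, the slow essential light chain, had the largest ratio between libraries of all 6973 genes, 58.3, from 2408, 23 and 184 counts. The slow troponin genes Tnnc1 at 31.1, 0.555 and 1.88 CPM and Tnnt1 at 47.9, 1.30 and 3.37 CPM and the calsarcin Myoz2 at 56.7, 1.67 and 2.80 CPM were also highest in control 1.

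The 15 fast-fibre genes summed to 170214, 191798 and 197976 CPM in control 1, 2 and 3, a range far narrower than that of the slow genes. Control 3 was highest for 10 of the 15, control 1 for 2 and control 2 for 3. For all 6973 genes with a mean of at least 10 CPM, these shares were 41.4%, 38.1% and 20.5% in control 3, 1 and 2. Among the fast genes, Myh1 behaved unlike the others, at 7467, 2370.2 and 861 CPM in control 1, 2 and 3, with a mean of 1616 CPM without control 1. Per length, the fast genes summed to 203155, 238787 and 245962 TPM and the slow genes to 1058, 90.2 and 96.7 TPM in the same libraries.

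**Figure D4:**
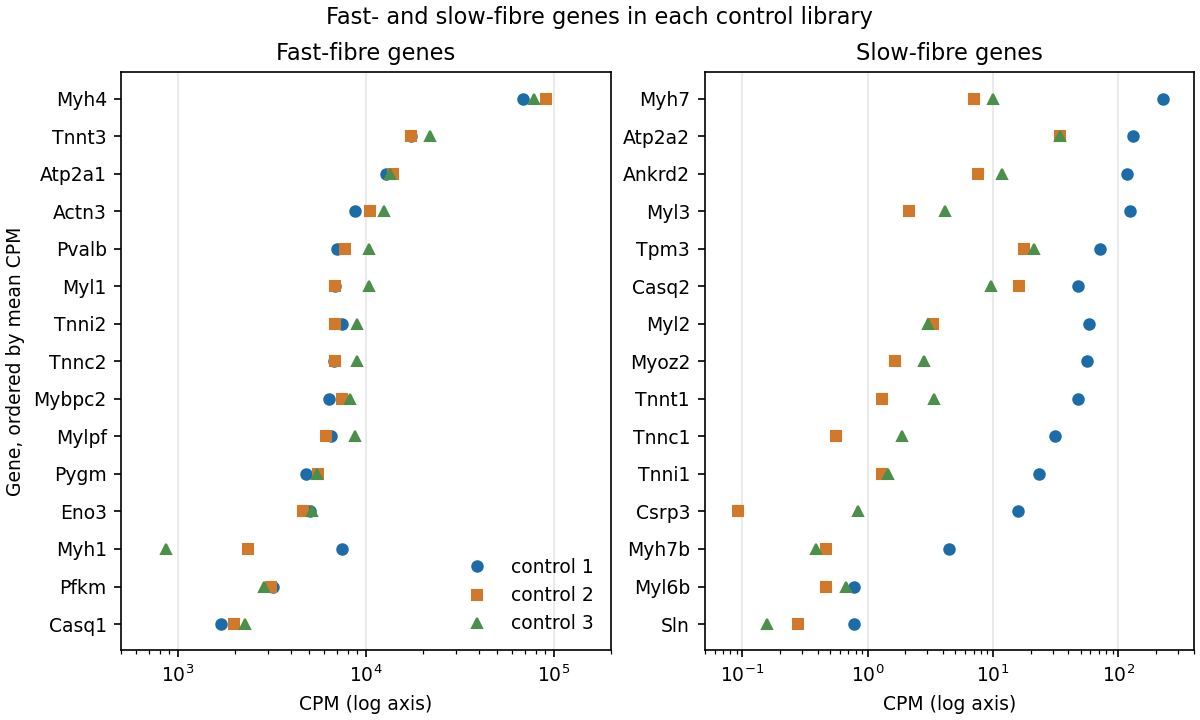
CPM (horizontal log axes with different ranges) of 15 fast-fibre genes (left) and 15 slow-fibre genes (right), ordered by mean CPM, 1 symbol per control library. The 3 symbols lie close together for most fast genes, while control 1 stands right of the others for the slow genes, as in Myh7 at 227 against 7.04 and 9.92 CPM.

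Genes of mitochondrial metabolism were also highest in control 1. Among list members with a mean of at least 10 CPM, control 1 was highest for 27 of 30 genes of fatty acid use, 26 of 26 of the citric acid cycle, 36 of 36 of complex I and 42 of 42 of complexes II to V. Over all 6973 genes at that level, control 1 was highest for 38.1%, control 2 for 20.5% and control 3 for 41.4%. The lists summed to 6692, 4055 and 3392 CPM in control 1, 2 and 3 for fatty acid use and 10315, 7155 and 6538 CPM in control 1, 2 and 3 for the citric acid cycle. Pdk4, the kinase that shuts off pyruvate dehydrogenase, was at 1142, 585 and 548 CPM in control 1, 2 and 3, the fatty acid transporter Cd36 at 459, 275 and 224 CPM and the lipase Lpl at 484, 223 and 131 CPM. Bdh1, an enzyme of ketone body use, was at 40.2, 1.39 and 1.63 CPM, and Slc25a34, a mitochondrial carrier, at 24.1, 5.18 and 2.08 CPM. Mitochondrial ribosomal proteins were highest in control 1 for 61 of 74 genes, with sums in a narrower range of 2585, 2043 and 2262 CPM in control 1, 2 and 3.

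Markers of blood vessels were highest in control 1 as well. The 20 endothelial genes summed to 1130.2, 960.1 and 859 CPM in control 1, 2 and 3, with control 1 highest for 15 of 16 members at 10 CPM or more, among them the water channel Aqp1 at 422, 318 and 324 CPM and the adhesion gene Pecam1 at 79.9, 56.4 and 54.2 CPM. The 14 tendon genes summed to 161, 63.7 and 138 CPM in control 1, 2 and 3. The part of vessels or tendon in the slow and oxidative values was not tested, and in bulk tissue more cells of a type and more RNA per cell cannot be told apart. The pattern also occurred in 1 MERKO library, where Myh7 was at 211, 1.97 and 2.45 CPM in MERKO 1, 2 and 3 and Myl3 at 124, 0.470 and 5.97 CPM in MERKO 1, 2 and 3.

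Markers of other cell types held small shares. Fibroblast and matrix genes held 0.369% ± 0.0586 of counts, adipocyte genes 0.298% ± 0.0703 of counts, smooth muscle and pericyte genes 0.0844% ± 0.00956 of counts, macrophage genes 0.0367% ± 0.0116 of counts and Schwann cell genes 0.00528% ± 0.000608 of counts. The collagen gene Col3a1 was at 301, 372 and 462 CPM in control 1, 2 and 3 and the proteoglycan gene Dcn at 399.7, 449.8 and 639.7 CPM. Control 3 was highest for 17 of 22 matrix genes at 10 CPM or more, against 41.4% of all 6973 genes at that level. The 15 macrophage genes summed to 269, 338 and 495 CPM in control 1, 2 and 3. Lyz2, the lysozyme of macrophages, was at 45.95, 55.5 and 83.03 CPM and Cd74, a chaperone of antigen presentation, at 37.6, 49.7 and 79.5 CPM.

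Adipocyte genes stood out in control 2, which was highest for 9 of the 12 members, out of 15 listed, with a mean of at least 10 CPM. Over all 6973 genes at that level, control 2 was highest for 20.5%. Scd1, a fatty acid desaturase, was at 162, 962 and 459.8 CPM in control 1, 2 and 3, Cfd, the adipokine adipsin, at 30.4, 194 and 82.2 CPM, and Adipoq, which encodes adiponectin, at 5.93, 43.04 and 20.7 CPM. Control 1 was lowest in these 3 genes and control 3 lay between. Without control 2 their means were 311, 56.3 and 13.3 CPM. The 2 members with the highest mean, the carbonic anhydrase Car3 at 1169, 1451 and 1553 CPM and the lipid droplet gene Plin4 at 714, 570.0 and 596 CPM, did not follow that order.

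The 12 genes listed for satellite cells, the stem cells of muscle, held 0.0151% ± 0.00197 of counts. Pax7, the defining factor of these cells, was low, at 1.75, 1.67 and 1.81 CPM in control 1, 2 and 3, above the level of 3 counts in every library. The integrin Itga7 had the highest mean CPM of the list, at 69.98, 65.3 and 58.99 CPM. Which cells its reads came from was not tested. At the neuromuscular junction, the kinase Musk was at 32.6, 30.9 and 32.1 CPM and the acetylcholinesterase Ache at 26.4, 25.5 and 18.3 CPM, and 13 of 15 listed genes reached 1 CPM in every library. Of 33 genes that mark other tissues, 23 had 3 counts or fewer in every control library and 19 had none, among them the insulin gene Ins2, the glucagon gene Gcg and the astrocyte gene Gfap. Alb, the liver albumin, was the exception at 10 CPM or more, at 20.6, 18.3 and 1.42 CPM in control 1, 2 and 3, and Apob, a liver and gut apolipoprotein, was at 5.93, 4.17 and 0.136 CPM.

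Cytosolic ribosomal protein genes were mostly lowest in control 2. The 82 cytosolic ribosomal proteins held 0.920% ± 0.124 of counts, with 79 at 1 CPM or more in every library. Control 2 was lowest for 75 and control 3 highest for 76 of the 77 with a mean of at least 10 CPM. Over all 6973 genes at that level, control 2 was lowest for 47.3% and control 3 highest for 41.4%. The part of the exon-length trend described below in these counts was not tested. Rpl3l, the striated-muscle form of Rpl3, was at 305, 263 and 295 CPM in control 1, 2 and 3 and Rplp0, of the ribosomal stalk, at 454, 376 and 477 CPM. The elongation factor gene Eef1a2, the muscle and neuron form, made up 79.6% ± 2.05 of the TPM of Eef1a1 and Eef1a2. Among degradation genes, the ubiquitin ligases Asb2 at 966, 794 and 939.8 CPM, Fbxo32 at 729.9, 594 and 904 CPM and Trim63 at 579.9, 398 and 740.4 CPM had the highest mean CPM. Among chaperones Hspa8 had the highest mean CPM, at 845, 764 and 769.6 CPM.

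Control 2 also differed from the other libraries by exon length. The length bins held the protein-coding genes outside mitochondrial DNA among the 6973 genes with a mean of at least 10 CPM. The median log2 ratio of control 2 to the mean of the 3 libraries was -0.21 for 110 genes with exons under 1000 bases. It was 0.07 for 219 genes of 16000 bases or more. Control 2 was highest for 4 of the 110 short genes and for 119 of the 219 long ones. Control 3 ran the other way, from 0.07 to -0.05, and control 1 from 0.10 to -0.03. Control 2 also had the largest share of CT010467.1 counts and the smallest total, and the part of either in the length trend was not tested. Ttn and Neb, which lie in the longest bin, were highest in control 2.

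**Figure D5:**
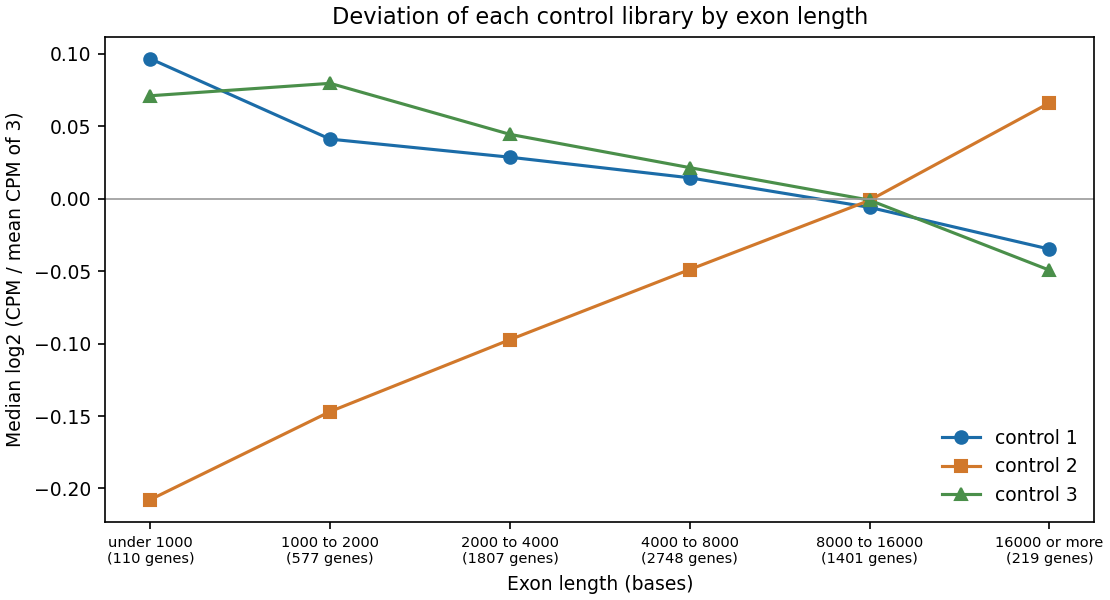
Median log2 ratio of a library's CPM to the mean of the 3 control libraries (vertical axis) in 6 bins of exon length (horizontal axis, with the number of genes), 1 line per library. Genes are protein coding, outside mitochondrial DNA, with a mean of at least 10 CPM. Control 2 climbs from -0.21 in the shortest bin to 0.07 in the longest, while the other libraries decline. The mean includes control 2, so its climb by itself lowers the other lines.

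Regulators of transcription were among the genes of intermediate level. Mef2c, a muscle-enriched MADS-box factor, was at 595, 592 and 706 CPM in control 1, 2 and 3, Tbx15, a T-box factor of fast fibres, at 287, 280.3 and 300.1 CPM, Tef, a clock-controlled factor, at 338, 316 and 309.8 CPM and Sox6, a repressor of slow-fibre genes, at 168, 219 and 191 CPM. Control libraries lay closer together in Tbx15 and Tef, with SDs of 10.1 and 14.7 CPM, than in Mef2c and Sox6, with SDs of 65.1 and 25.8 CPM. Mstn, the secreted inhibitor of muscle growth, was at 102, 115 and 146 CPM. Esr1, the gene targeted in the other group, was at 30.8, 39.99 and 38.3 CPM in control 1, 2 and 3. Dmd, which encodes dystrophin, was at 523, 547 and 449 CPM in control 1, 2 and 3. The immediate early gene Jun, a factor induced by many stimuli, was at 93.4, 77.6 and 114 CPM.

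Protein-coding genes held 91.2% ± 0.745 of counts, and the ribosomal RNAs of mitochondrial DNA held 7.12% ± 0.677. Long intergenic RNAs held 0.903% ± 0.0439 of counts, led by the nuclear RNA Malat1 at 3285 CPM in control 1, 3861 in control 2 and 3150.4 in control 3. Neat1, the paraspeckle scaffold, was at 372, 528 and 303 CPM and the imprinted H19 at 304, 187 and 168 CPM. The RNA components of the nuclear RNases, Rpph1 and Rmrp, were at 779.6 ± 146 CPM and 696 ± 186 CPM. Gm26917 at 2643 ± 305 CPM lies beside the ribosomal RNA model CT010467.1 on chromosome 17. Gm42418 at 609 ± 262 CPM lies within CT010467.1 on the opposite strand, while AY036118, within it on the same strand, had 0 counts in every library. The strand setting of the counts is not given in the sources used here. Whether reads of Gm42418 and of the ribosomal model were kept apart is therefore not known. Of the Y-linked genes, Ddx3y was at 142, 138 and 160.2 CPM and Eif2s3y at 55.4, 51.5 and 53.3 CPM, and the X-inactivation RNA Xist had 10, 4 and 26 counts. The label of all 3 libraries is male.

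Over 6973 genes with a mean of at least 10 CPM, the median CV was 9.06% and the median ratio of the highest to the lowest library 1.19. The ratio was 2 or more in 180 genes (2.58%) and 4 or more in 48. The most abundant genes were not steadier, with a median CV of 13.1% in the first 50. Pearson correlations of log2 CPM across these genes were 0.971 between control 1 and 2, 0.968 between control 1 and 3 and 0.984 between control 2 and 3, over genes that are not independent replicates. The steadiest genes were chosen for their spread, such as Pgls, an enzyme of the pentose phosphate pathway, at 14.7, 14.7 and 14.7 CPM, Paf1, of a transcription elongation complex, at 22.1, 22.1 and 22.1 CPM and the deacetylase Hdac5 at 50.7, 50.6 and 50.9 CPM. The counting error of the smallest Pgls count alone was 7.93%, so its CV of 0.110% lies below the counting error. Gapdh, often used as a reference gene, was at 2091, 2085 and 2431 CPM and Sdha, another, at 794, 605 and 516 CPM, with CVs of 8.99% and 22.3%.

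The control levels were set against the 3 MERKO libraries with edgeR's quasi-likelihood test and Benjamini-Hochberg adjustment over 13686 genes. Esr1 was the single gene called, 0.00731% of those tested, with a log2 fold change of -1.96 ± 0.16 (MERKO minus control, SE) and an adjusted p of 0.0242, and it was at 8.90, 10.5 and 8.64 CPM in MERKO 1, 2 and 3, below every control library. Its call was lost without MERKO 1 (adjusted p = 0.0979), without MERKO 2 (adjusted p = 0.0521), without control 2 (adjusted p = 0.104) and without control 3 (adjusted p = 0.0601) in edgeR. Over the fits that left out 1 library each, its log2 fold change lay between -2.09 and -1.84, and DESeq2 with all libraries gave it an adjusted p of 8.61e-21. Of the 50 most abundant control genes, edgeR called 0, and 2 had an unadjusted p under 0.05. In MERKO 16 were higher and 34 lower, with a median log2 fold change of -0.09 against 0.00 over all genes. The 50 were chosen for high control levels, which by itself favours lower values in MERKO. No conclusion is therefore drawn from this split or median. DESeq2 called 1 of the 50, Ppp1r3c, which encodes a glycogen-targeting subunit of protein phosphatase 1. It was at 1737, 881 and 2031 CPM in control 1, 2 and 3 and at 784, 489 and 676 CPM in MERKO 1, 2 and 3, so the groups did not overlap. DESeq2 gave it an adjusted p of 0.000643 and edgeR one of 0.63.

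For the muscle markers the edgeR fold changes were small against their errors. The log2 fold change was -0.01 ± 0.42 for Myh4 (adjusted p = 0.998), -0.08 ± 0.26 for Acta1 (adjusted p = 0.953), -0.25 ± 0.28 for Ckm (adjusted p = 0.845) and -0.16 ± 0.28 for Pvalb (adjusted p = 0.91). The groups overlapped in Myh4, Acta1 and Pvalb. In Ckm they did not, since every MERKO library, at 18372, 22439.5 and 22823 CPM in MERKO 1, 2 and 3, lay below every control library, and the groups did not overlap, in either direction, for 11.9% of the genes tested. A p above the threshold does not show that the levels were alike, and the biological coefficient of variation over all genes was 18.5%.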

How the data were processed

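The authors deposited raw counts per gene for 6 libraries. Per the submitters' processing notes, HTSeq 0.9.1, STAR 2.5.2b and DESeq were used, and GRCm38 and mm10 are the builds named. The role of these tools, the strand setting, the annotation release and how multiply placed reads were counted: not given in the sources used here. Columns named WT were taken as the control samples of the labels. Gene symbols, biotypes, coordinates and exon lengths came from GENCODE M21 of GRCm38. A symbol was found for 48435 of 48795 identifiers, and 360 had none. CT010467.1 was left out, counts were scaled to CPM, and genes were ranked by mean CPM. TPM used the union of exons, for gene models of at least 200 bases.

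MERKO and control were compared with edgeR 4.0.16 in R 4.3.3 (filterByExpr, TMM scaling, quasi-likelihood test, Benjamini-Hochberg, threshold 0.05) without a replicate block. The SE of a log2 fold change was derived as its absolute value divided by the square root of the F statistic of that test. The test was also run on simulated counts drawn with a common dispersion for all genes. Such counts lack the differences between libraries described above, so that run cannot show how the test performs on these data. Replicates have no stated origin, so a p-value measures only how these libraries vary, which may be technical. The chi-square per degree of freedom between control libraries was at least 103, computed with CT010467.1 included. The share of that model differed widely between the libraries, so this value does not show how the other genes varied. Each control library was counted as a library of its own by its label. Neither the label nor this value shows that they came from separate animals.

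Named genes were the 4 markers, the 25 highest by CPM and by TPM, up to 5 highest members of each list, the 20 largest and 10 smallest spreads at 10 CPM or more, the 10 highest noncoding genes, and genes for label checks. Further members of paralogue families, of the adipocyte and mitochondrial lists and other list members below the first 5 were named after their values were seen. The libraries were taken by their labels, while the topic, the gene lists and the genes to describe were chosen with earlier results of these data known. Alternatives were RLE scaling, DESeq2 1.42.0, no filter, CT010467.1 kept, mitochondrial genes left out, other level thresholds, a replicate block and leaving out each library.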

Additional observations from a re-analysis of the deposited data

How the results depend on the processing

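With CT010467.1 kept in the library totals, the 50 most abundant genes held 46.7% and sarcomere genes 28.7% of counts. Without genes of mitochondrial DNA the shares were 49.4% and 37.1%, and as TPM 62.8% and 26.9%. Leaving out 1 control library gave 52.8% to 54.7% and 31.5% to 34.3%. Genes at the level threshold in every control library numbered 6536 at 10 CPM. The mean CPM of the 247 named genes moved by 0.777 to 0.992 times with CT010467.1 kept, 1.11 to 1.13 times without mitochondrial genes and 0.990 to 1.01 times with TMM factors. Leaving out a library moved 29 of their 741 values by over 1.5 times, mostly slow-fibre and oxidative genes without control 1.

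Genes called between MERKO and control numbered 152 without a filter, 23 with DESeq2 and 51 with a replicate block. Leaving out 1 library gave 0 to 11, with 0 without MERKO 1 or MERKO 2 and 11 without MERKO 3. Of the 50 most abundant genes, Ppp1r3c was called without a filter (adjusted p = 0.000868, edgeR) and with the block (adjusted p = 0.0198). The causes were not tested. Replicate numbers were not taken as pairs: deviations of same-numbered libraries correlated at 0.444, 0.162 and 0.0559, and MERKO 2 correlated more with control 3, at 0.195. The log2 fold change of Myh4 turned positive with RLE scaling (0.0011) and with CT010467.1 kept (0.00095), and leaving out 1 library gave -0.19 to 0.26 for Myh4 and -0.40 to 0.0452 for Pvalb. The 14935532 total counts of control 2 limit its low values most.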

Other observations

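Gene models on the other strand of abundant muscle genes differed between the control libraries. The 50 most abundant genes outside mitochondrial DNA had 29 such models over 27 of them, and 22 of the models had at least 10 counts in a control library. Control 3 was highest for 17 of the 22, control 1 for 2 and control 2 for 3. Over all 6973 genes with a mean of at least 10 CPM, control 3 was highest for 41.4%, control 1 for 38.1% and control 2 for 20.5%. Ube2c, a ubiquitin-conjugating enzyme of dividing cells whose gene overlaps Tnnc2, was at 1.44, 1.39 and 73.8 CPM in control 1, 2 and 3. A930016O22Rik, opposite Ckm, was at 3.25, 4.17 and 68.6 CPM in control 1, 2 and 3, and Rabep2, opposite Atp2a1, was at 3.09, 2.41 and 19.8 CPM in control 1, 2 and 3. In MERKO libraries Ube2c was at 80.4, 32.4 and 3.12 CPM in MERKO 1, 2 and 3. Without control 3 the control mean was 1.42 CPM for Ube2c and 3.71 CPM for A930016O22Rik. The strand setting of the counts is not given in the sources used here, so reads of such a model and of its partner cannot be told apart.

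Positional and imprinted genes were also present. Hoxd8, a Hox gene of the body axis, was at 15.1, 24.99 and 37.6 CPM in control 1, 2 and 3 and Hoxc10, of the hindlimb, at 15.9, 17.5 and 18.9 CPM. Of the Hox genes, 15 of 39 reached 1 CPM in every control library, against 11060 of 21772 protein-coding genes in the table. Gnas, an imprinted G protein gene, was at 678, 648 and 696 CPM and the receptor Igf2r at 152, 149 and 118 CPM. Nnt, the mitochondrial transhydrogenase, was at 149, 40.7 and 12.3 CPM in control 1, 2 and 3 and at 135, 35.9 and 80.97 CPM in MERKO 1, 2 and 3. By CPM the clock genes were led by Tef, the nuclear receptor Rora at 181, 202 and 223 CPM and Nr1d2, a repressor of the clock, at 174, 170.3 and 179 CPM.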
